A study of Mus musculus with 8 samples.

Results

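Cdh19 and its relatives among the type II cadherins were followed across cultured sacral neural crest cells of mouse embryos homozygous for a Sox10 mutation, against those of wild-type embryos. The 9 genes examined were the type II cadherins of a chromosome 1 cluster (Cdh19, Cdh7 and Cdh20), those of a chromosome 15 cluster (Cdh6, Cdh9, Cdh10, Cdh12 and Cdh18) and Ctnnd2, which encodes delta-catenin and also lies on chromosome 15. They were taken by gene symbol out of 6855 genes tested, each represented by its brightest probe set, and all 9 were measured with no filter on low values. The starting point of the choice was Cdh19, whose large difference between the genotypes was already known from these arrays, so its values are given as a description without a test. The other 8 genes were chosen as its relatives by name, and their differences were taken from a fit over all genes.

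The mutant cultures came from embryos homozygous for Dom, a frameshift allele of the crest transcription factor gene Sox10 (Dom/Dom, 4 arrays), and the control cultures from wild-type embryos (4 arrays). In both, the neural tube caudal to somite 24 was dissected at embryonic day 9.5 and cultured for 24 hours in medium with 10% serum, and RNA came from the cells that had crawled out before the explant was removed. The Dom allele is carried by every cell of the embryo, strain background and pooling of embryos are not given in the sources used here, and no label says that replicates were separate litters. P-values therefore reflect the spread among these arrays, part of which may be technical. Values are log2 expression per probe set, so 1 unit is a doubling, and levels of different probe sets are not comparable with each other.

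Cadherins are calcium-dependent adhesion proteins that join neighbouring cells through their extracellular repeats and connect to actin through catenins bound to the cytoplasmic tail. Type II cadherins are a branch of this family whose members differ in which partners they bind, and crest cells exchange some of them as they leave the neural tube: Cdh6 is typical of premigratory and early migrating crest, Cdh7 of migrating crest in chick and Cdh19 of migrating crest and Schwann cell precursors. Delta-catenin, mainly a neuronal protein, binds the cytoplasmic tail of cadherins next to the membrane.

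Cdh19 (probe set 10357103) was 19.1-fold lower in Dom/Dom. Its level was 6.09, 6.63, 7.14 and 7.63 in Dom/Dom replicates 1 to 4, against 10.39, 10.37, 11.83 and 11.91 in the wild-type replicates of the same numbers. The Dom/Dom levels are dim, below the array medians of 9.18 to 9.33. RMA values can be compressed there and no detection calls were available, so the fold is approximate. The groups lay 2.74 log2 units apart at their nearest arrays, while the arrays of a single genotype spanned 1.53 units in Dom/Dom and 1.55 in wild type. Between same-numbered arrays the difference was -4.30, -3.74, -4.70 and -4.29. The mean difference of -4.25 thus varied less between pairs (SD 0.40, n = 4) than the levels did within a genotype (SD 0.66 in Dom/Dom and 0.86 in wild type, n = 4 each). In bulk cultures, fewer cells of a type and less RNA per cell cannot be told apart.

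Sox10 itself stood at 9.98, 10.94, 10.52 and 10.55 in Dom/Dom replicates 1 to 4, against 11.67, 11.46, 11.89 and 11.75 in wild type. It was 2.29-fold lower in Dom/Dom, a difference of -1.20 (limma adjusted p = 0.0168, and 0.0312 in the blocked fit). Dom/Dom replicate 1 was the lowest of its group for both genes, but Dom/Dom replicate 2 had the highest Sox10 of its group and the next to lowest Cdh19. In wild type, replicate 2 was the lowest for both genes, and replicates 3 and 4 stood above replicates 1 and 2 for both. These values do not separate a Dom transcript from a wild-type one, so the Sox10 level does not check the genotype labels.

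**Figure D1:**
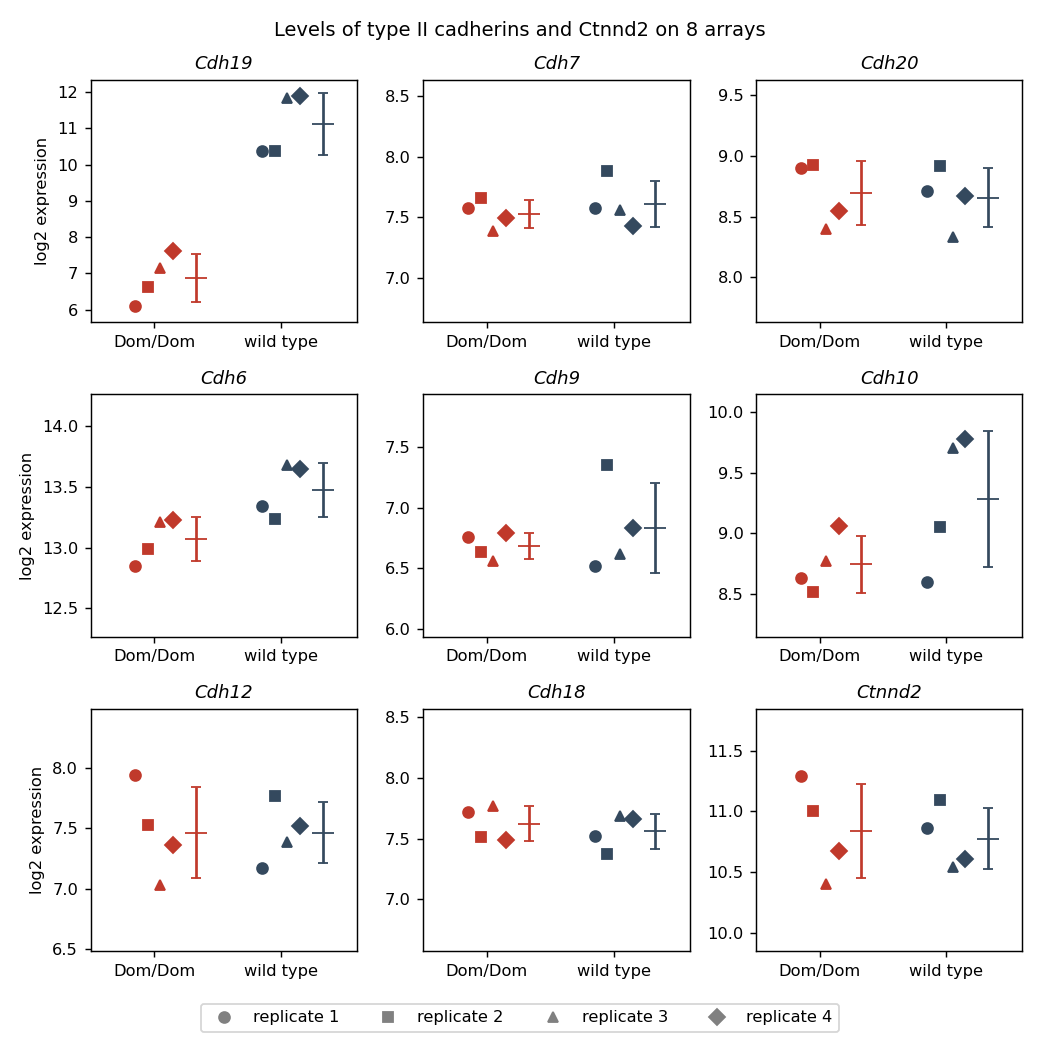
Log2 expression (y axis) of the 9 genes in Dom/Dom (red) and wild-type (dark) cultures, with a marker shape for each replicate number and the mean ± SD of 4 arrays beside the points; each panel spans at least 2 log2 units. The Dom/Dom arrays of Cdh19 lie between 6.09 and 7.63 and the wild-type arrays between 10.37 and 11.91, and in 7 of the other 8 genes the genotypes overlap.

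The other 2 cadherins of the chromosome 1 cluster did not differ detectably. Cdh7 (probe set 10349184), the measured gene next to Cdh19, had levels of 7.58, 7.66, 7.39 and 7.49 in Dom/Dom and 7.58, 7.88, 7.56 and 7.43 in wild type. The genotypes overlapped, and the difference was -0.08 with a 95% interval of -0.32 to 0.16 (limma adjusted p = 1). Cdh20 (probe set 10348999), a crest and neural cadherin, read 8.90, 8.93, 8.40 and 8.55 in Dom/Dom and 8.71, 8.92, 8.33 and 8.67 in wild type. It also overlapped, with a difference of 0.04 (95% interval -0.29 to 0.37; limma adjusted p = 1). These intervals leave out a change of 1 log2 unit in either direction, although RMA values of dim probe sets are compressed and the files hold no detection calls.

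Cdh6, the early crest cadherin (probe set 10427862), was 1.33-fold lower in Dom/Dom, a difference that passed with the replicate block but not without it. Its level was 12.85, 12.99, 13.21 and 13.23 in Dom/Dom replicates 1 to 4, against 13.34, 13.24, 13.68 and 13.65 in wild type. Every Dom/Dom array was below every wild-type array, though only just: the highest Dom/Dom array stood at 13.23 and the lowest wild-type array at 13.24. Groups that did not overlap in this direction made up 2.6% of all genes tested. The difference was -0.41 (95% interval -0.69 to -0.12), and it did not pass over all genes (limma adjusted p = 0.376). Same-numbered arrays differed by -0.49, -0.24, -0.47 and -0.42, lower in 4 of 4 pairs, as were 10.7% of all genes. With the replicate number as a block Cdh6 passed (limma adjusted p = 0.031), a call that was lost when the pair of replicate 3 (adjusted p = 0.199) or of replicate 4 (0.214) was left out of that fit.

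Cdh10 (probe set 10423243), which is best known from the brain, was lower in 3 of the 4 pairs. It stood at 8.63, 8.51, 8.77 and 9.06 in Dom/Dom replicates 1 to 4, against 8.60, 9.05, 9.70 and 9.78 in wild type. The groups overlapped, since wild-type replicates 1 and 2 lay within the Dom/Dom range. Pairwise differences were 0.03, -0.55, -0.93 and -0.72, with a mean of -0.54 (1.46-fold lower, 95% interval -1.07 to -0.01). The gene did not pass (limma adjusted p = 0.796, and 0.155 in the blocked fit). Without the pair of replicate 1 the blocked difference was -0.73 and passed (adjusted p = 0.00678), in a fit that called 475 genes.

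The upstream sequences of Cdh6 and Cdh10 are shown because these 2 genes varied over the arrays together with Cdh19. The window is the 250 bases before the transcript start in RefSeq (GRCm38.p6), at chr15:13173676-13173925 on the minus strand for Cdh6 and chr15:18820079-18820328 on the plus strand for Cdh10, written 5′ to 3′ on the gene's strand. Capitals mark the SOX motifs ACAAAG and ACAATG on either strand.
Cdh6: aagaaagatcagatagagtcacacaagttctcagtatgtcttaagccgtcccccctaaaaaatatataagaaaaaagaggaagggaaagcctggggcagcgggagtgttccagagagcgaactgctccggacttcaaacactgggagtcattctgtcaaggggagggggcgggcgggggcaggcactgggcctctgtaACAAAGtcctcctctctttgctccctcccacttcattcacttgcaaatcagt
Cdh10: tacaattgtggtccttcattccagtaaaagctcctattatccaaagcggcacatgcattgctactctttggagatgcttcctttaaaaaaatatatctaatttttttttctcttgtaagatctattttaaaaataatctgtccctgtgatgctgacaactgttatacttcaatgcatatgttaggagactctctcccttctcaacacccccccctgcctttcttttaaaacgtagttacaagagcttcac
The Cdh6 window held 1 ACAAAG, whose first base lies 52 bases before the start, and the Cdh10 window held none. Of the 9 genes, Cdh19 had no window in the table, so its upstream sequence was not searched. Of the 8 genes with a window (10 windows), Cdh7 was the only other one with a SOX motif, in 1 of its windows, on the opposite strand. Either SOX motif occurs in 25.2% of the 32851 windows of this length in the table. The Snail-type E-box CAGGTG, searched on both strands and with no overlap with the SOX motifs in these windows, was in 2 of the 10 windows, both of Cdh7, against 17.2% of all windows. A match describes the letters and does not show binding.

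The remaining cadherins of the chromosome 15 cluster, all known chiefly from the nervous system, did not differ detectably. Cdh9 (probe set 10423230) lay between 6.56 and 6.79 in Dom/Dom and between 6.52 and 7.35 in wild type, where replicate 2 held the high value. Its difference was -0.15 (95% interval -0.50 to 0.21). Cdh12 (probe set 10423258) read 7.94, 7.53, 7.03 and 7.36 in Dom/Dom and 7.17, 7.77, 7.39 and 7.52 in wild type. It had a mean difference of 0.00 (95% interval -0.40 to 0.41) made of 0.77 in pair 1 and -0.24, -0.36 and -0.16 in pairs 2 to 4. Cdh18 (probe set 10423287) lay between 7.49 and 7.77 in Dom/Dom and between 7.37 and 7.69 in wild type, a difference of 0.06 (95% interval -0.16 to 0.29). Its second, dimmer probe set averaged 7.45 in Dom/Dom and 7.23 in wild type. All 3 genes had a limma adjusted p of 1. Their levels lay below the array medians of 9.18 to 9.33, where RMA values can be compressed. No detection calls were available for them.

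Ctnnd2 (probe set 10423471), the delta-catenin gene, had overlapping genotypes. It read 11.29, 11.00, 10.40 and 10.67 in Dom/Dom, against 10.86, 11.09, 10.54 and 10.61 in wild type. The pairs were split 2 to 2 in direction, and the difference was 0.06 (95% interval -0.35 to 0.48; limma adjusted p = 1).

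Of the 8 genes beside Cdh19, 0 passed the threshold of 0.05 in the limma fit, in which 0.481% of all genes tested were called. With the replicate block 1 of 8 passed, Cdh6, against 1.5% of all genes. At an unadjusted p under 0.05 there were 2 of 8, Cdh6 and Cdh10, against 6.11% of all genes. The median difference of the 8 was -0.04, with 4 above 0 and 4 below, and 6 of them differed by less than 0.2 log2 units. The median over all genes was -0.00.

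**Figure D2:**
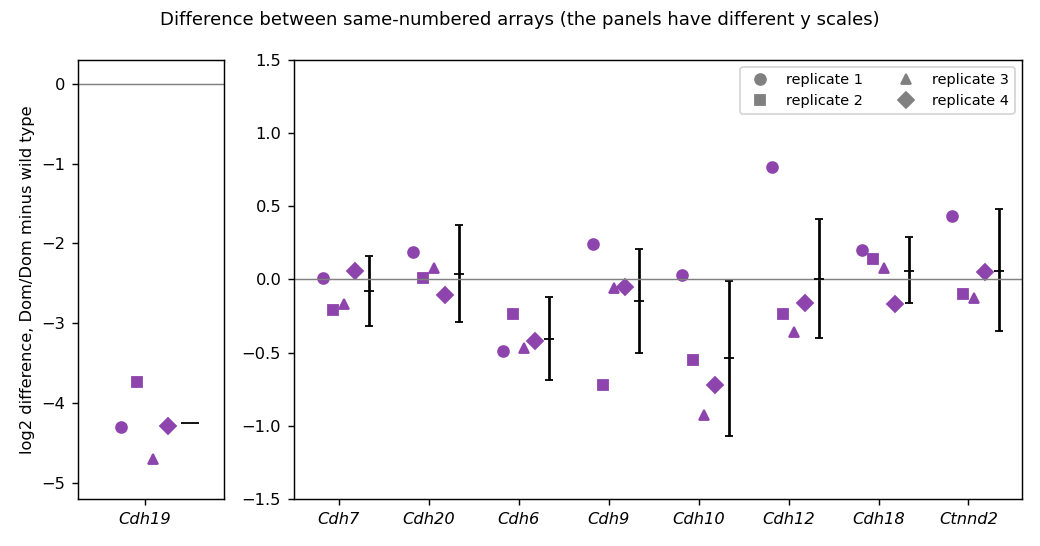
Log2 difference, Dom/Dom minus wild type, between arrays of the same replicate number (coloured markers), with the mean as a black bar and, for the genes other than Cdh19, its 95% limma interval; the panel of Cdh19 has a different y scale. Cdh19 lies between -4.70 and -3.74, Cdh6 is below 0 in 4 of 4 pairs, Cdh10 is at 0.03 in pair 1 and between -0.93 and -0.55 in the others, and Cdh12 is at 0.77 in pair 1 and below 0 in the others.

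Within each genotype, several of these genes separated replicates 3 and 4 from replicates 1 and 2. Cdh19, Cdh6 and Cdh10 were higher in both arrays of replicates 3 and 4 than in both arrays of replicates 1 and 2, in Dom/Dom and in wild type alike, as were 11.3% of all genes. Cdh7, Cdh20 and Ctnnd2 were lower there in both genotypes, as were 17.8% of all genes. Such a separation was thus seen in 6 of 9 genes and in 29.1% of all genes. No label says what sets these replicate numbers apart, and it lies across the genotypes rather than along them.

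After subtracting genotype means, the deviations of Cdh19 over the 8 arrays had a Pearson correlation of 0.97 with those of Cdh6, and 0.233% of genes had a higher one. The value was 0.89 for Cdh10 (4.49% of genes higher), -0.69 for Cdh7, -0.74 for Cdh20 and -0.82 for Ctnnd2. Sox10 stood at 0.51 (21.9% of genes higher). The arrays fall into the clusters just described, so part of these correlations can restate that separation. How large that part is was not tested, and the correlations are given without a test.

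**Figure D3:**
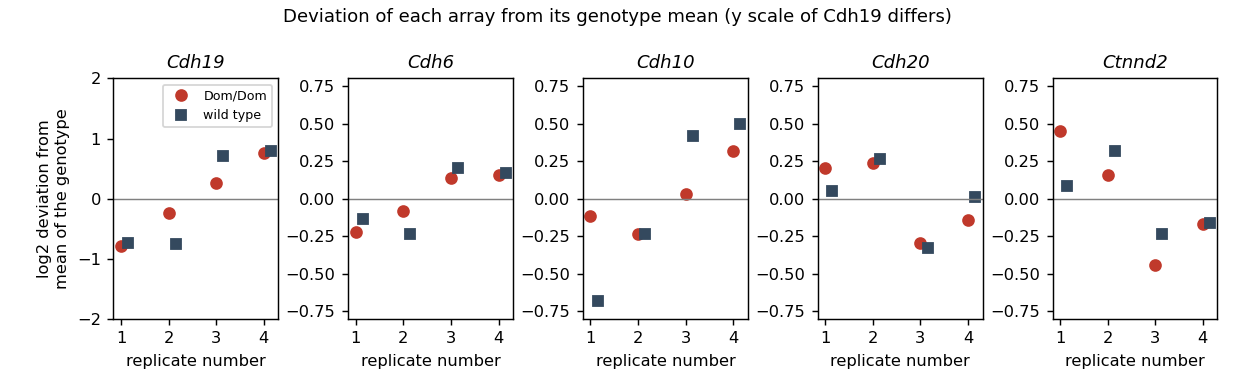
Deviation of each array from the mean of its genotype (y axis, log2 units) against replicate number for 5 of the genes, Dom/Dom as red circles and wild type as dark squares; the y scale of Cdh19 is wider. Replicates 3 and 4 lie above replicates 1 and 2 in both genotypes for Cdh19, Cdh6 and Cdh10, and below them for Cdh20 and Ctnnd2.

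The 5 genes whose levels over the 8 arrays were most like those of Cdh19 were Dct, an enzyme of melanin synthesis (Pearson correlation 0.993), Lama4, a laminin chain (0.993), Sphk1, a sphingosine kinase (0.992), Pmel, a melanosome fibril protein (0.983), and Enc1, an actin-associated protein (0.977). All 5 had lower means in Dom/Dom, from -2.53 for Dct to -0.36 for Enc1. Any gene whose fall in Dom/Dom is large against its spread scores high on this measure. After genotype means were subtracted, none of the 5 genes named remained among the 5 most alike. These were then Aldh3a2, a fatty aldehyde dehydrogenase (0.991), the chemokine gene Cxcl14 (0.988), the small GTPase gene Ralb (0.985), Lrrc58 (0.984) and Cyria (0.984), of which 0 passed the genotype comparison (limma adjusted p from 0.637 to 1).

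Cdh19 had the largest difference of all genes tested, so the genes next to it on chromosome 1 were bound to differ less. Their values are given as a description. Of the 5 nearest measured genes on each side, 0 of 10 passed at a limma adjusted p under 0.05, and their differences ran from -0.27 to 0.33 with a median of -0.04. At an unadjusted p under 0.05 there were 4 of 10, against 6.11% of all genes. Groups did not overlap in 3 of 10, against 3.78% of all genes: Serpinb2 and Serpinb7 were higher in Dom/Dom and Cntnap5a lower, and the last 2 did not pass with the block either. The most different was Serpinb2, a serine protease inhibitor, which averaged 7.21 ± 0.11 in Dom/Dom cultures and 6.88 ± 0.12 in wild-type cultures (n = 4 each, SD). It did not pass (limma adjusted p = 0.232), but did with the block (0.0369), a call lost without the pair of replicate 2, 3 or 4 (0.0799, 0.201 and 0.244). Dsel, the nearest gene on the other side from Cdh7, averaged 9.77 in Dom/Dom and 9.83 in wild type, a difference of -0.06. Around Cdh6 on chromosome 15, 0 of 10 neighbours passed as well, 4 of which are cadherins of the cluster. The 5 measured genes on its other side, Drosha and beyond, differed by -0.01 to 0.10, and the most different of the 10 was Cdh10.

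**Figure D4:**
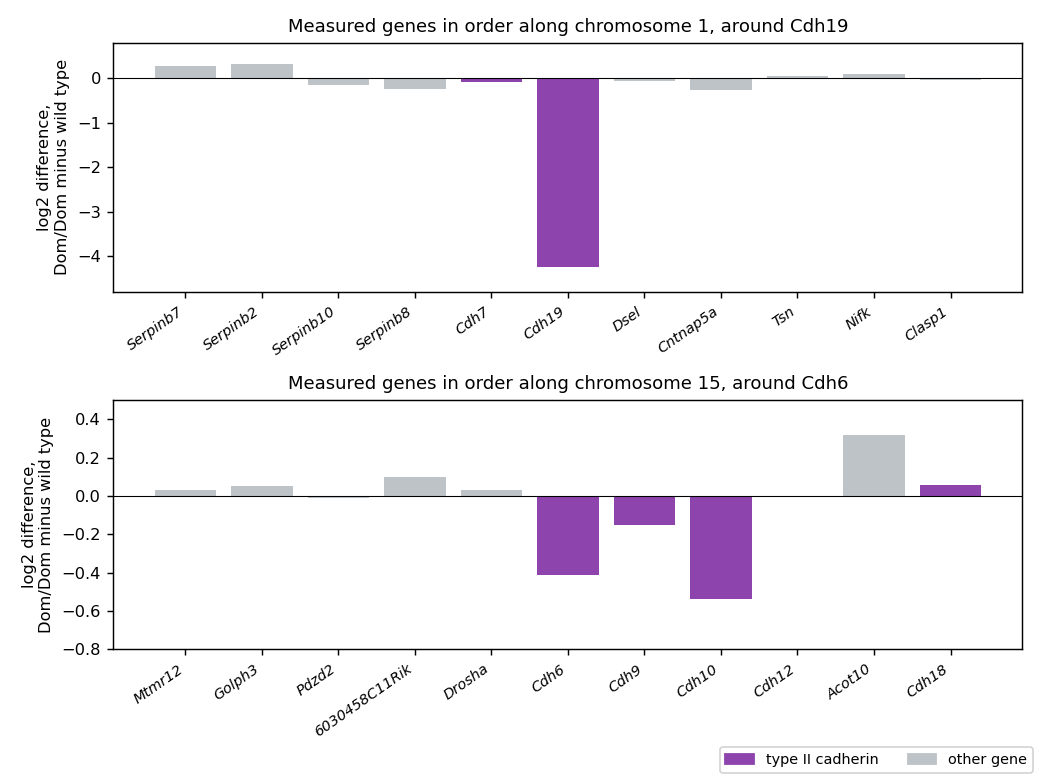
Log2 difference, Dom/Dom minus wild type (bars, means of 4 arrays each), for the 5 nearest measured genes on each side of Cdh19 and of Cdh6, in chromosomal order and not to distance; the y scales differ. Cdh19 stands at -4.25 among neighbours between -0.27 and 0.33, and Cdh6 at -0.41 and Cdh10 at -0.54 beside neighbours of which the highest, Acot10, is at 0.32.

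Other genes of cadherin adhesion were examined in 3 lists, of which 31 of 95 genes were measured. Central genes such as Ctnnb1, Ctnna1, Ctnnd1, Cdh1, Cdh2 and Snai1 were not among those measured, so the counts cover only part of cadherin adhesion. Over all genes 0 of the 31 passed, 4 had an unadjusted p under 0.05 (6.11% of all genes did), and their median difference was -0.02. With the replicate block 1 of 31 passed, Cdhr1, against 1.5% of all genes.

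Among catenins and other junction partners (9 of 25 measured), 0 of 9 passed (median -0.02). Jup, which encodes plakoglobin, a catenin of adherens junctions and desmosomes, averaged 11.13 ± 0.13 in Dom/Dom cultures and 11.49 ± 0.30 in wild-type cultures (n = 4 each, SD), a difference of -0.36 (limma adjusted p = 0.619). Actn1, an actin cross-linker, differed by 0.22 (adjusted p = 0.645). The alpha-catenin gene Ctnna3, the p120 family gene Arvcf and the vinculin gene Vcl differed by -0.02, -0.15 and 0.17.

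Of the 12 measured genes in the list of other cadherins and protocadherins (50 listed), 0 passed (median -0.02). Cdhr1, a cadherin-related gene of photoreceptors, averaged 8.13 ± 0.15 in Dom/Dom cultures and 8.68 ± 0.22 in wild-type cultures (n = 4 each, SD). Its groups did not overlap, as in 2.6% of all genes in this direction, and it was lower in 4 of 4 pairs, as were 10.7% of all genes. The difference was -0.55 (limma adjusted p = 0.105, and 0.0339 in the blocked fit). The blocked call was lost without the pair of replicate 3 (adjusted p = 0.175) or of replicate 4 (0.208). The protocadherin Pcdh9 differed by 0.29 (adjusted p = 1). Cdh24, a type II cadherin outside both clusters, averaged 10.22 ± 0.07 in Dom/Dom cultures and 10.18 ± 0.15 in wild-type cultures (n = 4 each, SD), a difference of 0.04 (adjusted p = 1).

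Regulators of cadherin turnover and of the crest transition (10 of 20 measured) gave 0 of 10 (median 0.02). The largest differences were those of Twist2, a basic helix-loop-helix factor (0.27, limma adjusted p = 1), and of the endocytic adaptor Dab2 (0.26, adjusted p = 0.765). Snai2, a repressor of cadherin genes in crest, averaged 11.23 ± 0.41 in Dom/Dom cultures and 11.42 ± 0.41 in wild-type cultures (n = 4 each, SD; adjusted p = 1), a difference smaller than the spread within either genotype.

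**Figure D5:**
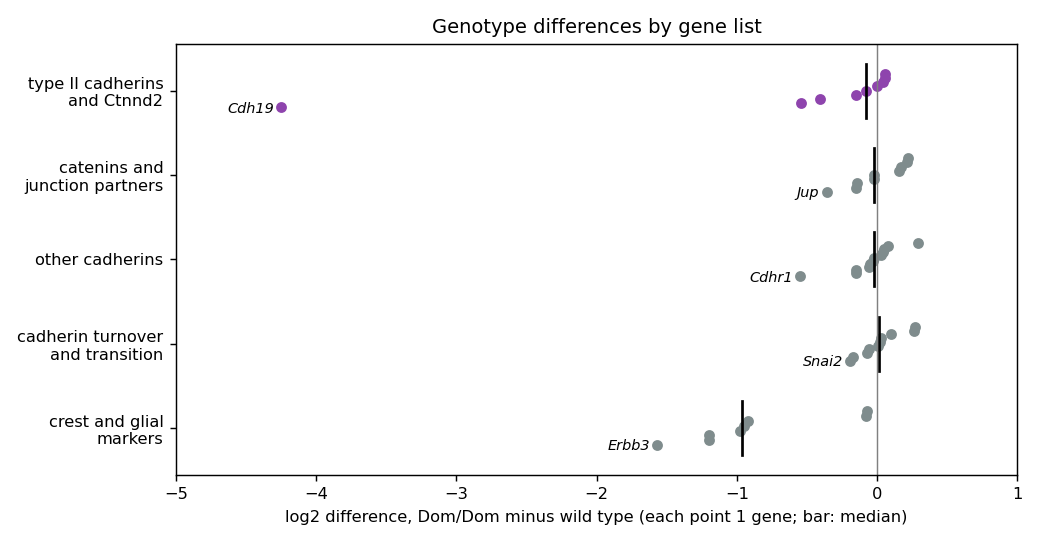
Log2 difference, Dom/Dom minus wild type (x axis), for each measured gene of the type II cadherins with Ctnnd2, of the 3 lists of cadherin adhesion and of the crest and glial markers; black bars are medians and the lowest gene of each row is named. The 3 adhesion lists lie between -0.55 and 0.29, while Cdh19 stands at -4.25 and the crest and glial markers run from -1.57 to -0.07.

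Marker genes of the cell types such cultures could hold were averaged per array, as mean log2 levels. For crest and glia (8 of 12 markers measured, 4 of which fell, where 0.408% of all genes did, among them the neuregulin receptor gene Erbb3) the mean ran from 10.63 to 10.87 in Dom/Dom and from 11.40 to 11.82 in wild type. For melanoblasts (2 of 8 measured, both fell) it ran from 7.99 to 8.69 in Dom/Dom and from 10.06 to 10.81 in wild type. These lists therefore moved with Cdh19, and their part in its difference was not tested. The means of the other lists overlapped between genotypes, with 0 genes called (with the block, Pou4f1 and Krt8 were called lower and Prrx1 higher). Single genes did not overlap in smooth muscle (2 of 4, higher), mesoderm (1 of 6, higher) and neurons (1 of 5, lower), against 3.78% of all genes. Neuronal markers (5 of 12 measured) ran from 9.86 to 10.31 in Dom/Dom and from 10.25 to 10.82 in wild type, and epithelial markers (8 of 11) from 9.22 to 9.63 in Dom/Dom and from 9.49 to 9.73 in wild type. Mesodermal markers (6 of 11) ran from 8.30 to 8.76 in Dom/Dom and from 8.14 to 8.42 in wild type, and smooth muscle markers (4 of 8) from 9.93 to 10.12 in Dom/Dom and from 9.59 to 9.96 in wild type. The smooth muscle overlap came only from the 2 arrays of replicate 1, whose wild-type mean (9.96) exceeded the Dom/Dom mean (9.93). For endothelium (3 of 9) the range was 7.97 to 8.14 in Dom/Dom and 8.04 to 8.20 in wild type. For blood (4 of 9) it was 8.75 to 9.31 in Dom/Dom and 8.93 to 9.45 in wild type. The neural tube was represented by 1 of 12 markers, Nkx2-9, at 9.01 to 11.03 in Dom/Dom and 9.16 to 10.77 in wild type.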

How the data were processed

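Gene expression was measured on 8 Affymetrix Mouse Gene 1.0 ST arrays, 4 per genotype, with genotype and replicate number from the sample titles. Per the labels' protocols, 250 ng of RNA went into each labelling. The authors deposited log2 values for each probe set, made with RMA and Partek per the submitters' processing notes; their versions are not given in the sources used here. With RMA, background is corrected, arrays are normalised to each other and probes are summarised on the log2 scale. Precision is limited by the number of arrays.

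The table held 16381 probe sets. Of these, 7416 had 1 gene symbol in the platform annotation, 509 had several and 8456 none. The brightest single-symbol probe set by mean over all arrays stood for its gene, giving 6855 genes. Symbols, chromosomes and gene order came by gene identifier from a RefSeq gene table of GRCm38.p6, which matched 6829 genes. Chromosomes 1 and 10 to 16 held 97.9% of the 6855. Few genes of other chromosomes were tested, so shares, adjustments and ranks over all genes are not genome-wide. Array medians lay between 9.18 and 9.33, and no array was identical to another.

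The genotype comparison used limma 3.58.1 under R 4.3.3 with genotype alone in the model and two-sided p-values. Adjustment was by Benjamini-Hochberg over all genes, with a threshold of 0.05. These steps were tested on simulated data that held no pairs or clusters of arrays, so that check does not cover the blocked fit. Same-numbered arrays of the 2 genotypes deviated together from their genotype means, with correlations of 0.47, 0.58, 0.61 and 0.67, each above 0.1, and were treated as pairs. This pairing comes from the data, since no label states it. Different-numbered arrays also exceeded 0.1 within the clusters, at 0.11 and 0.14 between replicates 1 and 2 and at 0.38 and 0.21 between replicates 3 and 4. The same-numbered values were all higher than these, but the limit of 0.1 alone does not separate pairs from the clusters. Blocked values stand beside results whose call they change.

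The members, lists and tests were chosen with earlier results of these data known. A further gene list is not reported here. Named were all 9 members, Sox10, list genes past the threshold or otherwise the 2 with the largest difference per list, the 5 genes most like Cdh19 by each measure, and neighbours past the threshold or with the largest difference; any other gene was named after its values were seen. Alternatives were the block, leaving out each array, all probe sets, a filter on dim genes, array weights, quantile normalization, median centring and the mean of probe sets. Promoter windows came from RefSeq (GRCm38.p6).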

Additional observations from a re-analysis of the deposited data

Results flagged for a closer look

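For the 9 genes, Sox10, the genes of the adhesion lists and the marker means, the 4 arrays of a genotype were checked for 1 array standing far from its group. This was so in 7 of 100 groups, where chance gives 5. None of the 7 was in the type II cadherins, Ctnnd2 or Sox10. In Dom/Dom replicate 2, Twist1 was high (8.97, where the rest of the group lay between 8.49 and 8.55) and Dab2 low (12.33, the rest between 12.52 and 12.54), and in Dom/Dom replicate 1 the smooth muscle marker mean was low (9.93, the rest between 10.10 and 10.12). In wild-type replicate 2, Lpp (13.01, others 13.41 to 13.44), Psen2 (8.68, others 8.80 to 8.82) and the epithelial marker mean (9.49, others 9.69 to 9.73) were low, and Cbll1 was high (11.39, others 11.10 to 11.13).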

How the results depend on the processing

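The difference of Cdh19 lay between -4.51 and -3.99 under the 18 alternatives that gave a value, including -4.51 to -3.99 over the fits without 1 array. The filter on dim genes removed 7 of the 9 genes, Cdh19 among them, so it gave values for Cdh6 and Ctnnd2 only. The fits that add the replicate block and leave out a pair were chosen after seeing the data. Of the 8 other genes, 0 passed under any alternative without the block, and in every fit without 1 array the count was 0. With the block 1 passed, with the block and without pair 1 there were 2, and without pair 2 there was 1, and without pair 3 or 4 there were 0. The count over all genes was 33, and it was 103 with the block, 190 with array weights, 4 over all probe sets and 10 to 51 without 1 array; it was 10 without wild-type replicate 3 or 4, 11 and 12 without Dom/Dom replicates 3 and 4, and 51 without wild-type replicate 2. With the block and without pairs 1 to 4 it was 475, 112, 15 and 13. The 3 adhesion lists gave 1 call (Cdhr1) with the block, with array weights or without wild-type replicate 2, 0 to 1 without 1 array, and 5, 2, 0 and 0 with the block and without pairs 1 to 4. Cdh6 kept its direction throughout (-0.49 to -0.33 without 1 array, adjusted p from 0.204 to 0.999), as did Cdh10 (-0.77 to -0.38). Differences near 0 changed sign in some fits: Cdh12 was at -0.16 with array weights and, with the block and without pair 1, at -0.25, beside -0.01 for Cdh20 and -0.06 for Ctnnd2, and Cdh9 was at 0.05 with the block and without pair 2. Without 1 array the ranges were -0.16 to 0.15 for Cdh12, -0.07 to 0.14 for Cdh20, -0.09 to 0.21 for Ctnnd2, -0.25 to 0.03 for Cdh9, -0.14 to 0.01 for Cdh7 and -0.00 to 0.11 for Cdh18. The cause of these changes was not tested. Signal over background could not be assessed, which limits what the values of dim probe sets show.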

Other observations

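The upstream windows of Ctnnd2 and of the type II cadherins other than Cdh19, which had none, were compared with each other after the values were seen. In 42 pairs of windows from different genes, the longest exact stretch in common was 15 bases, between the chromosome 15 neighbours Cdh6 and Cdh9: attcacttgcaaatc. It begins 18 bases before the transcript start in Cdh6 and 209 bases before it in Cdh9, and on either strand it occurs in 2 of the 32851 windows of the RefSeq table, these 2. The next longest, 13 bases between Cdh9 and Cdh18, occurs in 31 windows. Cdh6 differed by -0.41 and Cdh9 by -0.15 between Dom/Dom and wild type. The stretch is given as a description of sequence.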
